A study of Mus musculus with 3 samples.

Results

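The genes described here encode the protein subunits of complexes I, III and IV of the mitochondrial respiratory chain and of the ATP synthase, called complex V. They are 96 of the 55536 annotated genes in the tables, and the rule that picks them reads symbols and no measured value, although earlier results of these data were known when it was set. The nucleus encodes 83 of them (38 for complex I, 9 for complex III, 18 for complex IV and 18 for complex V) and the mitochondrial genome encodes 13 (7, 1, 3 and 2). The symbol Atp5o belongs to 2 of the 83 gene identifiers, of which ENSMUSG00000116933.1 had 0 counts in each library. Complex II has no mitochondrially encoded subunit, and its genes are given with the partner genes further on.

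Polyadenylated RNA was sequenced from macrophages grown from C57BL/6J mouse bone marrow, which are primary cells. The cells of all 3 libraries met 100 ng/ml lipid A for 12 h, were kept without it for 12 h after washing, and then met 100 ng/ml again for 480 min. Lipid A is the part of bacterial lipopolysaccharide that is sensed by Toll-like receptor 4. The written description says lipid A and is followed here, although the treatment fields say lipoprotein A. The labels record sex and age as not collected, name no genetic change, and attach the same donor record to the 3 libraries, numbered biological replicates 1, 2 and 3. They do not say whether these came from separate animals, so the spread between libraries may be technical. The libraries form 1 group, so there is no contrast between treatments. What follows gives levels, ratios within a library, and differences between libraries of cells treated alike.

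Oxidative phosphorylation passes electrons from NADH and succinate through complexes I and II, ubiquinone, complex III, cytochrome c and complex IV to oxygen. Complexes I, III and IV pump protons across the inner membrane, and complex V uses their return to make ATP. Complexes I, III, IV and V each combine subunits made in the cytosol from nuclear messenger RNA with subunits made inside the organelle from mitochondrial messenger RNA. Macrophages that sense bacterial products are known for shifting their energy metabolism towards glycolysis and for using complexes I and II as sources of reactive oxygen species.

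The libraries held 24596382, 54016971 and 43127749 expected counts. Values in threes given together are always in the order of replicates 1, 2 and 3. Levels are in TPM, a transcript abundance that corrects for transcript length and library size. A mean is followed by the SD over the 3 libraries (n = 3). All 8 macrophage markers reached 1 TPM in each library and their TPM summed to 15402, 13482 and 16732, of which Lyz2 was the largest part. Replicate 2 was 0.225 times the mean of the other libraries for Cd14, 0.4503 times for Fcgr1 and 1.91 times for Cd68, and between these for the other 5. Markers of 7 other cell types (T, B, dendritic and erythroid cells, neutrophils, fibroblasts and muscle) had means of at most 0.387 TPM, and the erythroid genes Hbb-bs and Hba-a1 had 0 counts. Replicate 2 stood apart. Genes annotated as ribosomal RNA took 3.21%, 0.232% and 1.97% of the counts, and the mean fragment length, read from the effective lengths, was 258, 219 and 286 bases.

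Short sequences show why the mitochondrial genes need care in these tables. The gene mt-Nd3, which encodes a membrane subunit of complex I, has a nuclear copy annotated as the unprocessed pseudogene Gm28438. The copy matched the gene over 345 bases with 1 mismatch (99.7% identity), which lies in the start codon. It is T3C, counted from 1 at the first base of mt-Nd3, with the base of mt-Nd3 first. The first bases of both are shown for mm10, with the differing base in capitals, and the mt-Nd3 stretch is chrM:9459-9476 on the plus strand.
mt-Nd3: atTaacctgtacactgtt
Gm28438: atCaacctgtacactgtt
A read that lies within the 345 matching bases and does not cover that base cannot be assigned to either. Genes also overlap within the mitochondrial genome. The end of mt-Atp8 and the start of mt-Atp6, both subunits of the membrane part of complex V, share 43 bases at chrM:7927-7969 on the plus strand of mm10, shown with the start codon of mt-Atp6 in capitals.
mt-Atp8 and mt-Atp6 overlap: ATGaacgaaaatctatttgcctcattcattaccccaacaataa
The genes mt-Nd4l and mt-Nd4 share 7 bases on the same strand, and mt-Nd5 and mt-Nd6 share 14 bases on opposite strands. Whether the counting used strand is not given in the sources used here, so reads of mt-Nd6 (minus strand) and antisense reads from its region cannot be told apart.

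Among the nuclear genes, promoters of 3 members are shown because each holds 1 or 2 of the motifs searched and replicate 2 stood differently in them, at 0.858 times the mean of the other libraries for Ndufs6, 0.961 times for Atp5h and 0.249 times for Cox8a. The motifs were GCGC followed by any 2 bases and GCGC, the core of the site of nuclear respiratory factor 1 (NRF1), CCGGAAGT, the core of the ETS site used by GABPA, and AAGATGGCG, the core of the YY1 site. All were searched on both strands, and none of them contains another. Sequences are from RefSeq on GRCm38.p6, 250 bases before to 50 after the start, 5′ to 3′ on the gene's strand, with matches in capitals. Ndufs6 encodes a zinc-binding accessory subunit of complex I (chr13:73328433-73328732, minus strand), Atp5h the d subunit of the stalk of complex V (chr11:115419870-115420169, minus strand), and Cox8a the smallest general subunit of complex IV (chr19:7217567-7217866, minus strand).
Ndufs6 promoter: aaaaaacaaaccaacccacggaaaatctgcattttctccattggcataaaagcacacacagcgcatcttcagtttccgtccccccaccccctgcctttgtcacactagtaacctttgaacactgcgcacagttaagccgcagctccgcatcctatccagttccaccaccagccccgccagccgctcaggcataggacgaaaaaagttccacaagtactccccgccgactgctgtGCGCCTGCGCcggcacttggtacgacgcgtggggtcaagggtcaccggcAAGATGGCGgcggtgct
Atp5h promoter: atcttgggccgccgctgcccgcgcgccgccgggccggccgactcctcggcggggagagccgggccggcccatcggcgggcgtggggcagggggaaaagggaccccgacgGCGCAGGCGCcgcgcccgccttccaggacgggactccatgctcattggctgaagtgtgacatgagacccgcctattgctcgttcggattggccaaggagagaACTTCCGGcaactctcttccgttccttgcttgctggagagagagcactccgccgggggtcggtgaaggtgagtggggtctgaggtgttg
Cox8a promoter: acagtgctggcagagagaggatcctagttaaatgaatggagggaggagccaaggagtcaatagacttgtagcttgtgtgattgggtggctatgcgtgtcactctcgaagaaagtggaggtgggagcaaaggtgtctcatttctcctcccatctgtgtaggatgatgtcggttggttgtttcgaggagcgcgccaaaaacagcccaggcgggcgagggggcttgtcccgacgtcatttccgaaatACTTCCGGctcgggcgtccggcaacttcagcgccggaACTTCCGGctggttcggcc
Ndufs6 holds an NRF1 and a YY1 match, Atp5h an NRF1 match and an ETS match on the opposite strand, and Cox8a 2 ETS matches on the opposite strand. Promoters were found for 66 of the 83 nuclear members, 2 of them through an older symbol. The NRF1 motif was in 17 of these 66 (25.8%), against 9.61% of 17492 protein-coding genes and 16.6% of the 8008 with a mean of at least 1 TPM. The YY1 motif was in 7 (10.6%), against 2.14% and 4.21%, and the ETS motif in 5 (7.58%), against 5.69% and 10.7%. These are matches of letters only, with no test, and the members' promoters held a median of 19 CpG against 21 in the 8008 genes. The 3 promoters shown were picked by their replicate 2 ratios and do not stand for other genes with the same motifs. Atp5k, with an NRF1 match, was at 0.156 times, and Uqcrh, with an ETS match, at 0.634 times. Whether a motif goes with the ratio was not tested.

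The nuclear subunit genes were expressed at well above the typical level. A mean of at least 1 TPM was reached by 76 of 83, 75 reached 1 TPM in each library, and 41 had a mean of at least 100 TPM. The median of the 76 was 110.3 TPM, against 16.2 TPM for 9983 protein-coding genes detected by the same rule. Members at 0 or near it were tissue-restricted forms, a supernumerary Atp5o entry and no general subunit. In these bulk samples, fewer cells of a type and less RNA per cell cannot be told apart.

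**Figure D1:**
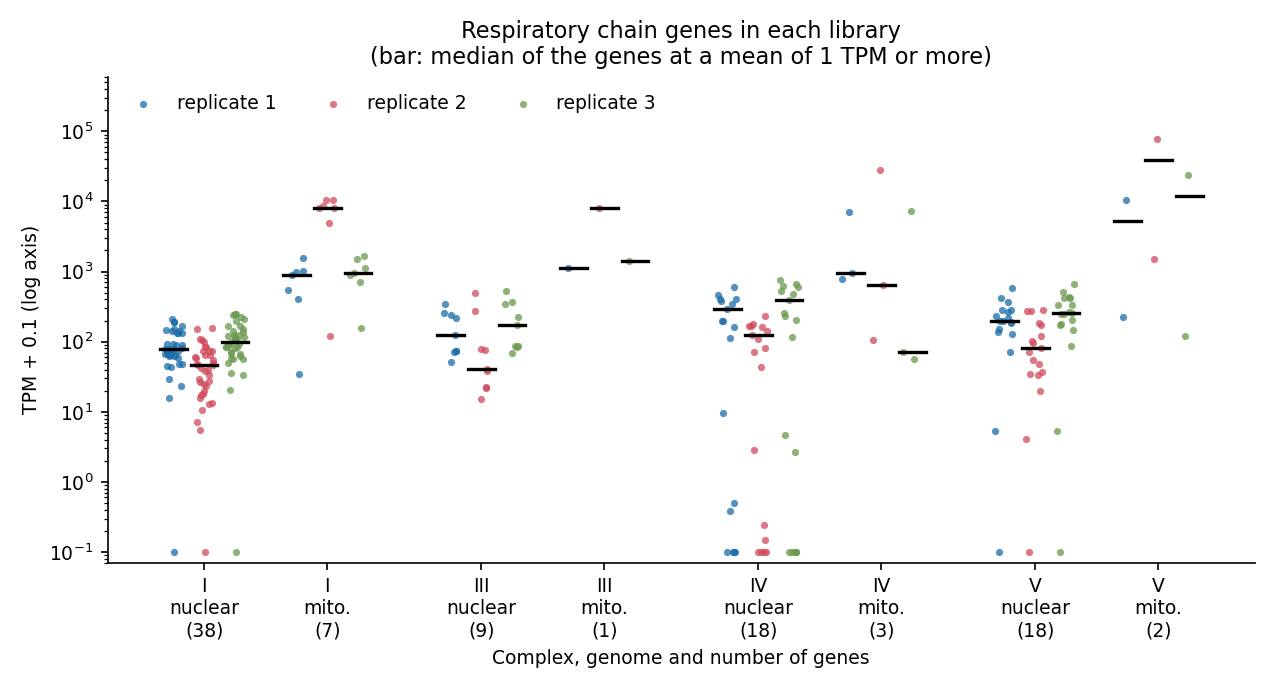
TPM + 0.1 (log axis) of each nuclear and mitochondrially encoded gene of complexes I, III, IV and V, with 1 point per gene, 1 colour per library, and a bar at the median of the genes at a mean of 1 TPM or more. The nuclear genes of replicate 2 sit lower than those of the other libraries in each complex (medians 45.8, 40.0, 126 and 80.8 TPM) and most of its mitochondrial genes sit higher.

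Complex I, the NADH dehydrogenase, is the largest of the complexes, with catalytic core subunits and many accessory subunits. Its 37 detected nuclear genes ran from 13.8 to 185 TPM, with a median of 77.0 TPM. The highest was Ndufa4 (ENSMUSG00000029632.7, chromosome 6, 11900292 to 11907497, minus strand), which carries a complex I name and is also counted as a subunit of complex IV, at 185 ± 69.4 TPM. It read 208, 107 and 240.1 TPM. The accessory membrane subunits Ndufa1 and Ndufc2 followed at 191, 98.1 and 247 TPM and at 194, 83.4 and 247 TPM. In these 3 genes replicate 2 was the lowest library. Ndufs5, an accessory subunit on the intermembrane side, read 145, 152 and 169 TPM, with the 3 libraries close together. The lowest detected members were Ndufb4 at 15.9, 5.37 and 20.04 TPM and Ndufv1, the core subunit that binds NADH and flavin, at 23.4, 13.2 and 33.3 TPM. The core iron-sulfur subunit Ndufs1 stood close to Ndufv1 at 29.7, 26.1 and 35.7 TPM.

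The low value of Ndufb4 goes with a processed copy. Ndufb4c, which is identical to Ndufb4 over 390 bases, read 120.4, 72.5 and 201 TPM, which was 88.4, 93.1 and 90.9% of the TPM of both together. Another relative that the symbol rule left out as noncoding, Ndufb1-ps, read 152, 73.7 and 199 TPM, a level among those of the abundant accessory subunits. Of 13 such noncoding relatives, these were the 2 with a mean of at least 1 TPM.

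Complex III, the cytochrome bc1 complex, passes electrons from ubiquinol to cytochrome c. Its 9 nuclear genes were all detected, from 45.1 to 379.8 TPM. The hinge protein gene Uqcrh (ENSMUSG00000063882.12, chromosome 4, 116066965 to 116075071, minus strand) led at 341, 274 and 524 TPM. Uqcrb, a small subunit near the ubiquinone site, read 255, 494 and 345 TPM and was highest in replicate 2. The small subunits Uqcr10 and Uqcrq read 241, 78.8 and 369 TPM and 215, 40.01 and 224 TPM, and replicate 2 was the lowest in both. The catalytic subunits stood at the bottom of the list. The Rieske iron-sulfur protein gene Uqcrfs1 read 74.04, 22.1 and 84.2 TPM and cytochrome c1, Cyc1, 51.9, 14.98 and 68.4 TPM. The core protein gene Uqcrc1 read 74.3, 38.3 and 87.96 TPM and its partner Uqcrc2 71.95, 76.04 and 87.7 TPM, so the core pair had like levels in replicates 1 and 3 and unlike levels in replicate 2.

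Complex IV, cytochrome c oxidase, reduces oxygen. Of its 18 nuclear genes, 13 were detected, with a median of 264 TPM. Cox5a (ENSMUSG00000000088.7, chromosome 9, 57521274 to 57532426, plus strand), a matrix-side subunit, was the highest at 605, 231 and 659.6 TPM. The intermembrane subunit Cox6b1 read 463, 169 and 769 TPM, and the small membrane subunits Cox7c and Cox8a read 409, 144 and 611 TPM and 376, 126 and 632 TPM. All 13 detected genes were lowest in replicate 2 in the first quantification, although Cox7a2l was not in the second (131, 186 and 226 TPM). Cox7c also has an identical stretch of 192 bases in the processed copy Gm12338, which read 302, 658 and 477 TPM. Its copies took 42.5, 82.1 and 43.9% of the summed TPM, and the sum of 711, 802 and 1087 TPM no longer put replicate 2 lowest. Estimates for such a short copy rest on few counts (72.8, 436 and 129.8).

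Complex V held the nuclear member with the highest mean. Atp5b (ENSMUSG00000025393.12, chromosome 10, 128083273 to 128090391, plus strand), the catalytic beta subunit, stood at 507 ± 201 TPM, with 585, 279 and 659 TPM in the libraries. Within each library another nuclear member was higher (Cox5a at 605 TPM, Uqcrb at 494 TPM and Cox6b1 at 769 TPM). In the second quantification the mean of Atp5b (355 TPM) lay under that of Cox5a (420 TPM). The membrane subunit Atp5l and the rotor subunit Atp5e read 424, 101 and 509 TPM and 368, 33.02 and 439.6 TPM. Atp5e was the detected nuclear member whose replicate 2 lay furthest below the mean of the other libraries. Atp5h read 232, 269.8 and 329.7 TPM, so replicate 2 lay between the others. The lowest detected members were Atp5s, a coupling factor that is not part of the enzyme's core, at 5.26, 4.03 and 5.14 TPM, and Atp5g1, 1 of the 3 genes for the c subunit of the rotor ring, at 70.2, 19.6 and 86.4 TPM.

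Several complex IV subunits and 1 complex I subunit exist in a general form and in a form made mainly in muscle, lung or testis or under low oxygen. The macrophages carried the general forms. The muscle form Cox8b, the testis forms Cox8c and Cox7b2, and the hypoxia-induced Ndufa4l2 had 0 counts in each library. With a floor of 3 counts per library, Cox8a was at least 250.6-fold higher than Cox8b and at least 418-fold higher than Cox8c. Likewise Cox7b was at least 182-fold higher than Cox7b2, and Ndufa4 at least 609-fold higher than Ndufa4l2, in the library where each bound was lowest. The lung form Cox4i2 had 1 count in replicate 2 and none elsewhere, beside 404, 168 and 526 TPM of Cox4i1. The testis form Cox6b2 had 1 count in replicate 1 and none elsewhere. The muscle form Cox7a1 had 1, 1 and 10 counts, beside 195, 70.5 and 234 TPM of Cox7a2.

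Cox6a2, the heart and skeletal muscle form of Cox6a, was the one such form that was plainly read, at 9.45, 2.76 and 4.58 TPM from 68, 53 and 57 counts. Its general partner Cox6a1 read 293, 108 and 392 TPM, and the log2 ratio of Cox6a1 over Cox6a2 (of TPM + 0.1, as for the pairs that follow) was 5.52 ± 0.76. The muscle markers Myh7, Tnnt2 and Ckm had summed levels of 0.14, 0.11 and 0.18 TPM, and their part in this value was not tested. Cox7a2l, whose long form is known for joining complexes III and IV into supercomplexes and of which C57BL/6J is known to carry a short allele, read 195, 178 and 255 TPM. The log2 ratio of Cox7a2 over Cox7a2l was -0.49 ± 0.74, and its sign differed between libraries.

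The 3 c subunit genes make the same mature protein behind different targeting peptides. Their order was Atp5g3, Atp5g2 and Atp5g1 in each library of the first quantification, at 283, 80.8 and 339 TPM, 151, 34.4 and 181 TPM and 70.2, 19.6 and 86.4 TPM. The log2 ratio of Atp5g3 over Atp5g1 was 2.01 ± 0.03. That of Atp5g3 over Atp5g2 was 1.01 ± 0.19. Atp5g1 over Atp5g2 was -0.99 ± 0.16 and turned to 2.58 in the second quantification, where Atp5g2 read 9.94, 6.44 and 5.74 TPM and its identical copy Gm10175 read 140.0, 37.1 and 240.2 TPM.

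The 13 mitochondrially encoded genes give the membrane core of the complexes, and most of them were read at levels far above the nuclear subunits. For complex I, mt-Nd1, mt-Nd2 and mt-Nd5, all of the proton-pumping membrane arm, read 985, 10438 and 1522 TPM, 548, 8075 and 882 TPM and 896, 8713 and 956 TPM. The minus-strand gene mt-Nd6 read 1542, 10551 and 1661 TPM, and mt-Cytb, the one mitochondrial subunit of complex III, 1112, 8205 and 1429 TPM. In these 5 genes, none of which has a near-identical copy, replicate 2 was 6.46 to 11.3 times the mean of the other libraries. For complex I, mt-Nd4 read 1016, 8086 and 1116 TPM, mt-Nd4l 412, 4922 and 710.4 TPM and mt-Nd3 34.4, 118 and 156 TPM. For complex IV, mt-Co1 (ENSMUSG00000064351.1, chromosome M, 5328 to 6872, plus strand), which holds the oxygen-binding site, read 7034, 28355 and 7249 TPM. The other catalytic subunit, mt-Co2, read 957, 641 and 55.8 TPM, and mt-Co3 783, 105 and 72.3 TPM. In complex V, mt-Atp8 read 10354, 77837 and 23488 TPM and mt-Atp6, whose product forms the proton channel, 228, 1510.1 and 122 TPM. The value of mt-Atp8 rests on an effective length of 18.4, 21.4 and 11.7 bases for a transcript of 204 bases, shorter than the fragments sequenced, so its level is not comparable with the others.

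Much of this unevenness moved with the nuclear copies. At least 99% identity over at least 100 bases was found for 1 nuclear copy each of 7 of the 13 genes (mt-Nd3, mt-Nd4, mt-Nd4l, mt-Co1, mt-Co2, mt-Co3 and mt-Atp6), and for copies of 9 of the 83 nuclear members. The 7 mitochondrial copies lie in 1 stretch of 4663 bases on mm10 chromosome 1 (24611535 to 24616197), annotated as unprocessed pseudogenes. The copy Gm28661 read 4482, 26499.7 and 7723 TPM, which was 82.4, 97.6 and 99.3% of its sum with mt-Co2. Gm28437 took 75.8, 98.6 and 98.8% of its sum with mt-Co3, and Gm10925 took 93.4, 93.1 and 97.8% of its sum with mt-Atp6. For mt-Nd4 the copy Gm28439 was at 0 TPM in replicates 1 and 3 and took 34.8% in replicate 2, which moved the library's mt-Nd4 level by itself. A read that is identical in both places holds nothing that says where it came from, so gene and copy were also summed, a choice made after seeing the data.

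With gene and copy summed, the mitochondrial genes were more alike. The highest over the lowest gene within a library was 301, 739.7 and 421 times for genes alone and 22.7, 47.6 and 26.6 times with copies. Without mt-Atp8 these were 205, 269 and 130.03 times alone and 22.7, 17.7 and 12.2 times when summed. The sum for mt-Co2 was 5439, 27141 and 7779 TPM, for mt-Co3 3236, 7442 and 6021 TPM and for mt-Atp6 3461, 21955 and 5522 TPM. For mt-Co1 it was 11378, 28944 and 10792 TPM, so mt-Co1 and mt-Co2 stood among the 3 highest of the 13 in each library, while mt-Co3 ranked 5, 12 and 4. For mt-Nd3 the sum was 501, 1634 and 1905 TPM, the lowest mean of the 13, with replicate 3 highest. The other 12 genes were highest in replicate 2 when summed, against 10 of 13 alone.

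**Figure D2:**
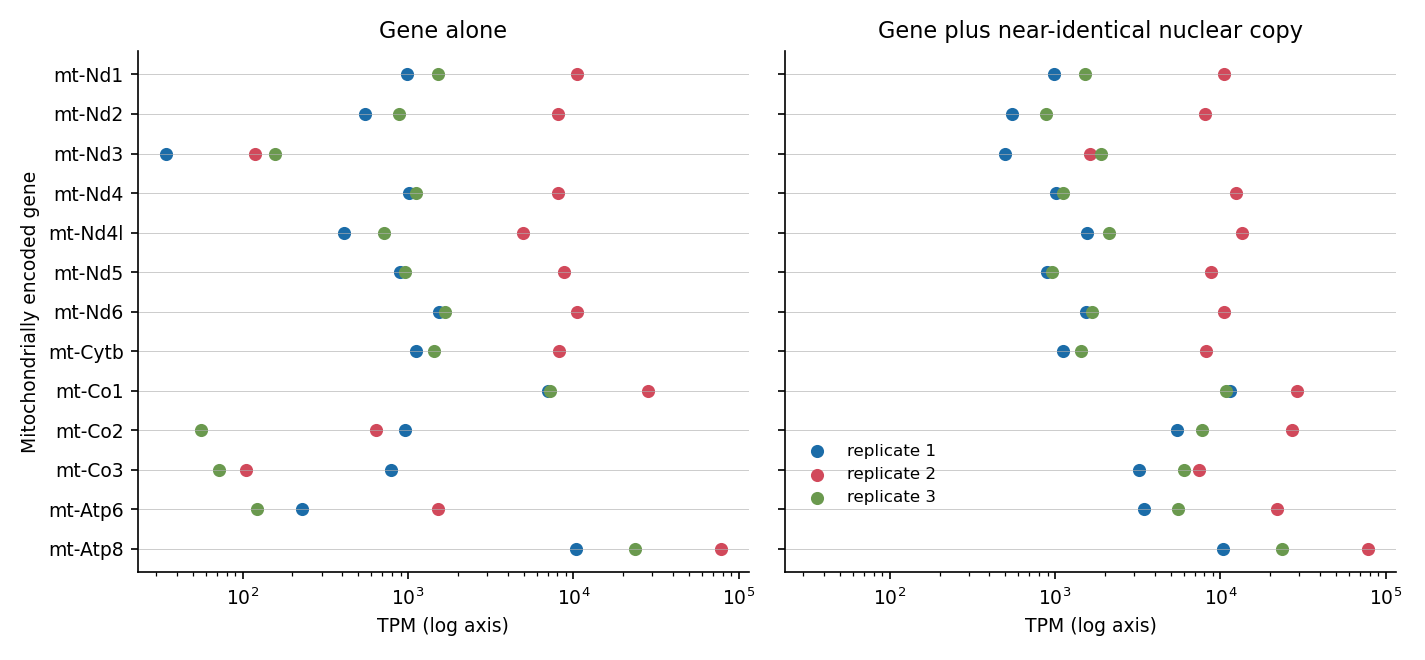
TPM (log axis) of each mitochondrially encoded gene in each library, alone (left) and summed with its near-identical nuclear copy (right). With copies added, mt-Co2, mt-Co3 and mt-Atp6 move right into the range of the other genes, and replicate 2 is the highest library for each gene except mt-Nd3.

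How the transcripts of the 2 genomes stood against each other was asked within each library and complex, as the log2 of the median TPM of mitochondrial genes over the median TPM of detected nuclear genes. The mitochondrial median was above the nuclear median in complexes I and III in each library. Single genes could differ, as mt-Nd3 alone read 34.4 TPM in replicate 1, under the nuclear complex I median of 79.3 TPM. The libraries hold polyadenylated RNA, and whether transcripts of both genomes were captured alike was not tested. For complex I the ratio was 3.498, 7.47 and 3.29, a mean of 4.75 ± 2.35, and for complex III 3.14, 7.68 and 3.06, a mean of 4.63 ± 2.64. For complex V it was 4.74, 8.94 and 5.52, a mean of 6.40 ± 2.23, with mt-Atp8 as 1 of its 2 genes. From mt-Atp6 alone it was 0.20, 4.22 and -1.08, a mean of 1.12 ± 2.77, so its sign in replicate 3 rested on mt-Atp8. Complex IV differed in sign between libraries, at 1.71, 2.35 and -2.44, a mean of 0.54 ± 2.60. With copies added, complex IV read 4.21, 7.76 and 4.31, a mean of 5.43 ± 2.02, and lay above 0 in each library. The other complexes with copies were 5.14 ± 2.34 for I and 6.74 ± 2.22 for V. Without mt-Nd4l and mt-Atp8, whose effective lengths were under 100 bases in each library, these became 5.01 and 5.55 (mt-Nd3, under 100 bases in replicate 3 alone, was kept).

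The 4 ratios with copies all put replicate 2 above the others, at 7.83, 7.68, 7.76 and 9.27. In replicates 1 and 3 they lay between 3.06 and 5.82. Leaving out replicate 2 brought the means for genes alone to 3.39, 3.10, -0.37 and 5.13, and to 3.80, 3.10, 4.26 and 5.47 with copies. The sign of complex IV for genes alone thus rested on replicate 2, and also turned without replicate 1 (-0.04). No p is given, since flipping signs over 3 libraries allows a two-sided exact p of 0.25 at the lowest.

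**Figure D3:**
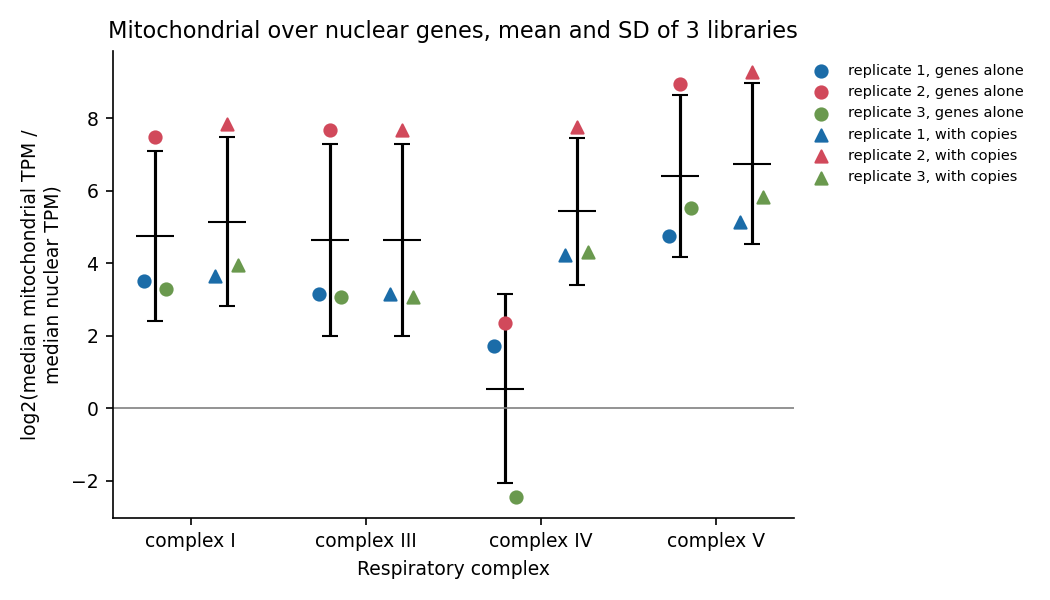
Log2 ratio of the median mitochondrial over the median nuclear TPM for each complex, as points for the 3 libraries with mean and SD, for genes alone (circles) and with copies (triangles). Complex IV spans from -2.44 to 2.35 for genes alone and from 4.21 to 7.76 with copies, and replicate 2 is the highest point in each column.

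As a share of all counts, the 13 genes took 1.06% (95% Wilson interval 1.05 to 1.06%), 6.86% (6.85 to 6.87%) and 1.13% (1.13 to 1.14%). With copies the shares were 1.45% (1.45 to 1.45%), 9.15% (9.14 to 9.15%) and 1.80% (1.80 to 1.80%). The 83 nuclear members took 0.430% (0.427 to 0.432%), 0.291% (0.290 to 0.292%) and 0.542% (0.539 to 0.544%). The intervals and the floors used above cover counting error only, since reads are not independent molecules. The sum of mitochondrial TPM with copies over the sum of nuclear TPM was 3.40, 37.4 and 4.08, and in the second quantification 2.83, 30.7 and 3.10. In the first quantification replicate 2 thus had the highest mitochondrial and the lowest nuclear share. In either quantification the ratio of the sums was highest there, but a ratio does not show which side moved. Shares and TPM are parts of a fixed total, so a larger mitochondrial part leaves less for the nuclear members.

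The nuclear members were not lowered evenly. In the first quantification replicate 2 was the lowest library for 68 of the 76 detected members (89.5%), against 58.5% of the 9983 detected protein-coding genes. The level of replicate 2 was under 0.5 times the mean of the other libraries for 54 members (71.1%), against 23.7% of those genes. In the second quantification some of the 68 were not lowest there, such as Uqcrh (233, 266 and 489 TPM) and Atp5a1 (145, 180 and 224 TPM). Members were not counted in that quantification, and the values that follow are from the first. The median ratio was 0.378, against 0.781. Because mitochondrial transcripts filled more of the total in replicate 2, the members were also scaled to the TPM outside the 13 genes and their copies, a choice made after seeing the data. Replicate 2 was then lowest for 59 of 76, 42 were under 0.5, and the median ratio was 0.468. On the same scale replicate 2 was lowest for 43.0% of the 9983 genes and under 0.5 for 15.6%, and their median ratio was 0.968. These counts are a description of 3 libraries, with no test.

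Genes named for this pattern were chosen after their values were seen. Atp5e, at 368, 33.02 and 439.6 TPM, had 1090.0, 321 and 2085 counts, so the deepest library held the fewest. Ndufa2, an accessory subunit of the matrix arm, read 144, 17.6 and 140.0 TPM, and Ndufb11, of the membrane arm, 44.2, 6.98 and 49.6 TPM. The small membrane subunits Atp5k and Atp5mpl of complex V read 287, 55.1 and 418 TPM and 268, 48.3 and 422 TPM. In the opposite direction, 5 of 76 (6.58%) were highest in replicate 2, against 27.3% of the 9983 genes, and Uqcrb was the furthest. With the scaling to TPM outside mitochondrial genes these were 8 of 76 (10.5%) and 41.0%. Ndufab1, the acyl carrier protein, read 64.4, 109.9 and 69.4 TPM, Ndufa12 80.9, 158 and 136 TPM and Ndufa10 48.1, 74.5 and 55.6 TPM. The peripheral stalk subunit Atp5f1 read 198, 274 and 246 TPM. So genes of 1 complex, such as Uqcrb and Uqcr11 (126, 22.4 and 171 TPM), moved apart in replicate 2.

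**Figure D4:**
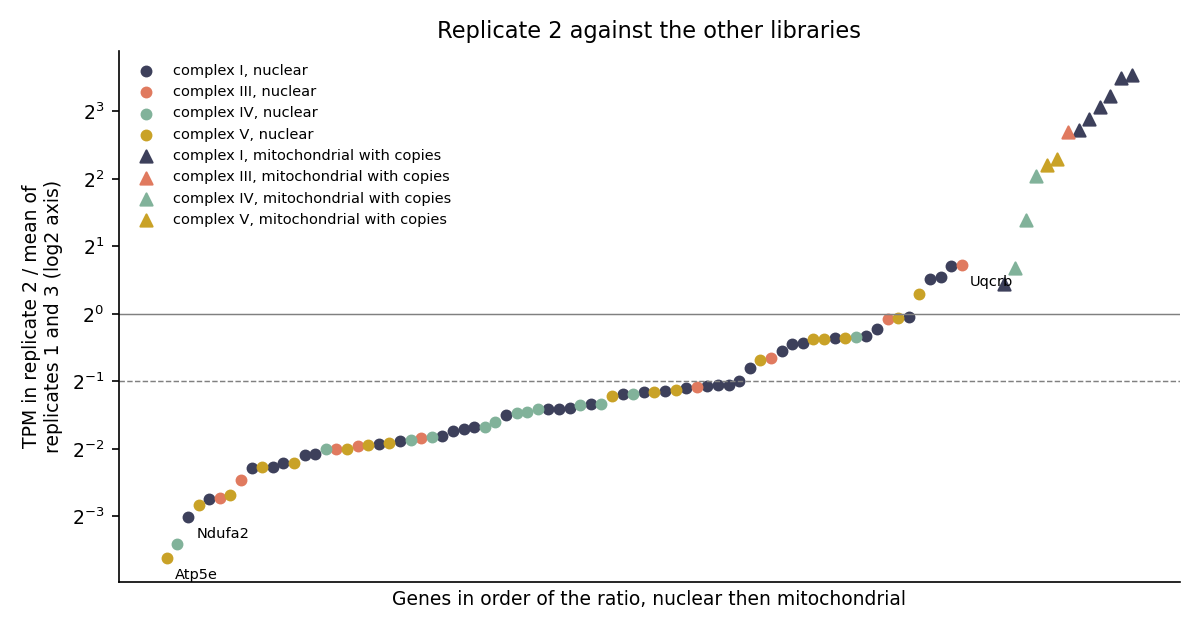
TPM in replicate 2 divided by the mean of replicates 1 and 3 (log2 axis), 1 point per gene in order of the ratio, for 76 nuclear genes (circles) and the 13 mitochondrial genes with copies (triangles), coloured by complex. The nuclear genes run from 0.0818 for Atp5e to 1.65 for Uqcrb and 54 lie under the dashed line at 0.5, and the mitochondrial genes run from 1.36 to 11.6.

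Other values moved with these ratios. With the members split by GC content of the main transcript, the median ratio was 0.440 for the 25 genes of lowest content, 0.434 for the 26 between and 0.265 for the 25 of highest content. Across the 76 members the deviation of replicate 2 had a Spearman rho of 0.33 with transcript length and -0.34 with GC content. Over 9970 protein-coding genes these were 0.27 and -0.42, across genes that share the same libraries and so with no p. The members are short, with a median of 682 bases against 2664. The part of length, GC content, fragment size and ribosomal RNA content in the result was not tested, and with 1 library on 1 side they cannot be told apart from a difference between the cells.

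Whether the spread between libraries went beyond that of other genes of like abundance was tested in edgeR with an F test that sets the quasi-likelihood variance of each gene against the trend. After Benjamini-Hochberg adjustment it called 0 of 11932 genes (0%), and so 0 of the 75 nuclear and 0 of the 13 mitochondrial members tested. With 3 libraries and a prior of 4.51 degrees of freedom, this test could hardly call any gene. Even mt-Nd4l, the member with the largest F (99.97th percentile of all genes), had an unadjusted p of 0.0012. The absence of calls therefore does not show that the members vary like other genes. The adjusted p was 0.933 for each member named in this paragraph. At an unadjusted p under 0.05 there were 503 genes (4.22%). These included 9 of 75 nuclear and 12 of 13 mitochondrial members, all but mt-Co1, each counted without its copies. With gene and copy summed there were 11 mitochondrial members, as mt-Co3 was then also not among them, and again 9 nuclear members. The 9 were Ndufa2, Ndufb11, Cyc1, Uqcr11, Uqcrq, Atp5e, Atp5g2, Atp5k and Atp5mpl, and replicate 2 was the lowest library in each. A chi-square test of counting noise called 74 of 75 and 13 of 13, against 87.9% of all genes. With no filter on low counts the edgeR test called 7 members, all mitochondrial, beside 0.314% of all genes. Without replicates 1, 2 or 3 it called 3, 2 and 1, again all mitochondrial, beside 0.164%, 0.0575% and 0.0921%.

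The 2 quantifications of the same reads, compared with limma on log2(TPM + 1), differed for 165 of 10191 protein-coding genes (1.62%) by an adjusted p under 0.05 and a difference of at least 1. Of these, 38 (0.373%) were higher in the first and 127 (1.25%) lower. Among the members, 6 of 13 mitochondrial and 1 of 76 nuclear genes were called. Lower in the first were mt-Nd3 (difference -2.33), mt-Nd4l (-1.25), mt-Co2 (-1.24), mt-Co3 (-3.44) and mt-Atp6 (-3.83), each in 3 of 3 libraries. Higher in the first were mt-Atp8 (1.68) and Atp5g2 (3.60), also in 3 of 3. The SE was 0.18 for each, because limma pooled the variance over all genes. The adjusted p ranged up to 6.7e-10 and rests on that pooled variance.

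In the second quantification mt-Atp6 read 1845, 21418 and 3124 TPM, beside 228, 1510.1 and 122 TPM in the first, and mt-Co3 read 1776, 4036 and 1078 TPM, beside 783, 105 and 72.3 TPM. Except for mt-Atp8, the called members were genes with a near-identical copy. With gene and copy summed, 1 member was called, mt-Atp8, beside 1.55% of all genes. The difference for mt-Co3 became 0.28 and for Atp5g2 0.05. For Cox7c it went the other way, from 0.38 (adjusted p = 0.646) to 0.98 (adjusted p = 3.27e-06), under the difference of 1 that a call needed. Over all genes tested the median difference was 0.14. With each library's differences centred on their own median, 6 members were called, beside 0.824% of all genes, and mt-Co3 was lost (adjusted p = 0.0913). In that limma run the SE differed between genes, from 0.066 to 0.47 for the 6 called, with adjusted p of 0.0088 to 0.049. Uncentred, the other 75 nuclear members differed by -0.58 to 0.45, with a median over the nuclear members of 0.21. None of them reached a difference of 1.

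**Figure D5:**
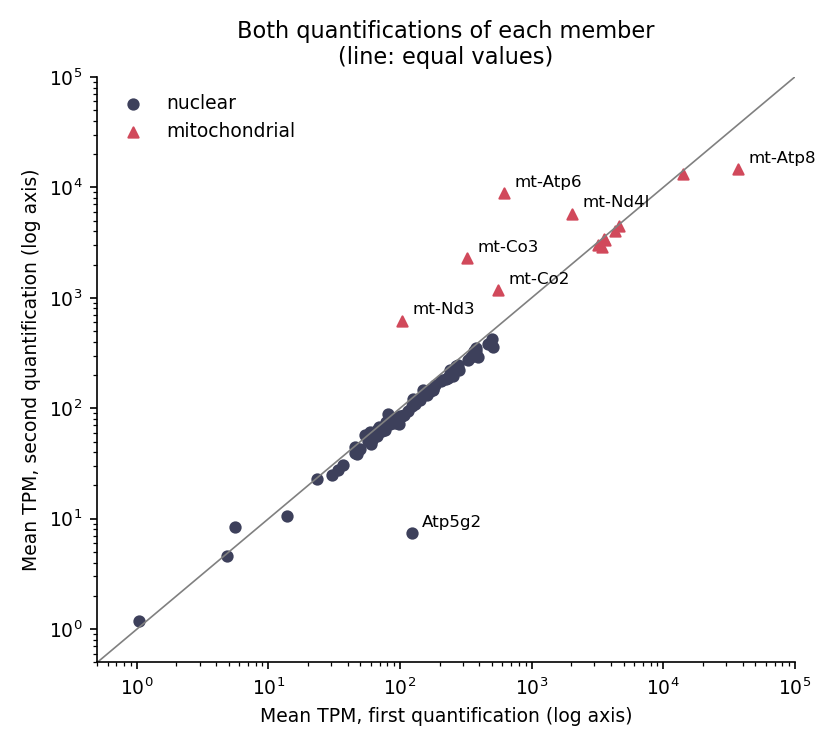
Mean TPM of each detected member in the first (x) and second (y) quantification, both log axes, with a line at equal values and names for the 7 genes that differed by the test. The nuclear genes follow the line except Atp5g2, and mt-Nd3, mt-Nd4l, mt-Co2, mt-Co3 and mt-Atp6 lie above it.

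The transcripts behind the nuclear levels were mostly protein-coding. Over 75 members with at least 1 TPM in each library, protein-coding transcripts made up a median of 98.6% of a gene's TPM, against 95.8% over 9419 protein-coding genes. In 3 members the mean share was under 50% (4.0%, against 6.51% of the protein-coding genes).

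Those 3 were Ndufa5, an accessory subunit of the matrix arm, with 29.1, 24.5 and 35.9%, Ndufs4, an accessory subunit of the same arm, with 34.8, 37.3 and 35.8%, and Atp5f1 with 60.4, 8.04 and 66.97%. In Ndufa5 the leading transcript was annotated as a processed transcript, and in Ndufs4 and Atp5f1 as subject to nonsense-mediated decay. Atp5f1 thus had its high total in replicate 2 with the smallest coding share, while replicates 1 and 3 were alike. The coding share of replicate 2 lay over 20 percentage points below both other libraries in 9 members (12.0%), against 10.8% of 9432 protein-coding genes, and above both in 1 (1.33%), against 2.11%. The 9 were Atp5f1, Atp5j, Cox7a2l, Cyc1, Ndufa10, Ndufc1, Ndufs1, Ndufs3 and Uqcrc2, so in replicate 2 the totals of Uqcrc2 and Ndufa10 held a larger share of transcripts not annotated as coding.

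Genes that work beside these subunits were read from 8 lists of 92 genes. Complex II, succinate dehydrogenase, is wholly nuclear, and its 4 genes had means of 80.2 to 159.9 TPM. Sdhb, the iron-sulfur subunit, read 175, 96.2 and 209 TPM, the flavoprotein Sdha 90.3, 109 and 127 TPM, and the membrane anchors Sdhd and Sdhc 104, 38.2 and 142 TPM and 72.96, 63.2 and 104 TPM. Replicate 2 was lowest in 3 of 4 and under 0.5 times the others in 1, Sdhd. Among 7 carriers and entry points, cytochrome c (Cycs) read 77.1, 115 and 85.1 TPM, and the electron transfer flavoprotein subunits Etfb and Etfa 49.5, 31.2 and 75.8 TPM and 45.02, 35.6 and 57.6 TPM. Gpd2, which feeds electrons from glycerol phosphate, read 23.5, 31.1 and 20.6 TPM. The lowest were Etfdh (12.4, 11.7 and 16.9 TPM) and Dhodh of pyrimidine synthesis (3.86, 1.51 and 5.72 TPM).

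Assembly factors, which build the complexes without staying in them, were less abundant than the subunits. The median of the list was 9.07 TPM for complex I (16 genes), 15.4 TPM for complex III (6), 25.2 TPM for complex IV (22) and 13.9 TPM for complex V (4). For complex I the range ran from Nubpl (1.79, 0.66 and 2.54 TPM), an iron-sulfur carrier, and Tmem186 (2.91, 2.52 and 5 TPM) to Dmac1 (44.7, 16.5 and 73.2 TPM), Foxred1, Ndufaf8 and Tmem126b. Ndufaf8 read 32.8, 1.28 and 35.6 TPM, with replicate 2 far below. In complex III, Uqcc2 (82.6, 18.9 and 109.8 TPM) led, before Uqcc1, Uqcc3 and the Rieske translocase Bcs1l (3.40, 3.78 and 5.53 TPM), and Ttc19 and Lyrm7 were lowest. In complex IV, the copper chaperone Cox17 led at 322, 86.9 and 401 TPM, before Coa5 (191, 191 and 211 TPM), Cox20 (61.6, 156 and 85.02 TPM) and Coa3, and Sco2 and Pet117 were lowest. In complex V, Tmem70 (24.01, 12.7 and 22.7 TPM) and Atpaf2 (13.2, 25.7 and 15.9 TPM) led, before Fmc1 (9.60, 1.2 and 17.6 TPM) and Atpaf1 (8.64, 8.18 and 9.31 TPM). Replicate 2 was 0.0881 times the mean of the other libraries for Fmc1, from 37, 13 and 112 counts. It was the lowest library in 10 of 16 (62.5%), 3 of 6 (50%), 17 of 21 detected (80.95%) and 3 of 4 (75%), against 58.5% of all detected protein-coding genes.

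Genes that transcribe, process and copy the mitochondrial genome had a median of 10.2 TPM over 23 members, all at 1 TPM or more in each library. The RNA-stabilising Slirp led at 138, 40.4 and 169 TPM, before the RNA-degrading Pnpt1 (54.5, 59.8 and 42.4 TPM), the DNA-binding Ssbp1 (45.1, 54.5 and 43.8 TPM) and Fastk (37.2, 13.9 and 35.3 TPM). The helicase Twnk (1.63, 1.09 and 2.61 TPM) and Polg2 (1.39, 1.43 and 2.59 TPM) were lowest. Replicate 2, where mitochondrial transcripts were high, was lowest for 11 of the 23 (47.8%), against 58.5% of all detected protein-coding genes. The mitochondrial RNA polymerase Polrmt read 9.31, 5.89 and 7.29 TPM and the DNA-packaging activator Tfam 15.04, 34.4 and 16.9 TPM, so the polymerase was lowest and Tfam highest in replicate 2 (both named after their values were seen).

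Of 10 regulators of the nuclear subunit genes, 8 were detected. Yy1 read 14.7, 50.2 and 14.9 TPM, Gabpa 14.2, 37.2 and 11.5 TPM and its partner Gabpb1 16.3, 25.97 and 12.6 TPM, each highest in replicate 2. The estrogen-related receptor Esrra read 32.4, 6.47 and 32.3 TPM, and was lowest there. Nrf1 read 11.01, 7.95 and 11.3 TPM. The coactivator Ppargc1a and the receptor Ppara had 0 counts in each library, while the related coactivators Ppargc1b and Pprc1 read 2.44, 2.00 and 2.38 TPM and 9.98, 10.1 and 13.1 TPM. None of the 8 lists held a gene called for excess variance by edgeR, where 0% of all genes were called, so that test says nothing particular about them.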

How the data were processed

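Per the labels, 3 polyA libraries from 1 µg of RNA each form 1 group. Per the notes deposited with the files, reads were quantified on mm10 with GENCODE M21, in a first quantification of genes and transcripts and a second of transcripts. The sources used here name no tool, version, aligner or strandedness. The deposited tables give, per the file headers, expected counts (first) and estimated counts (second), which share a read among its possible transcripts. Per the file headers, the deposited TPM divide counts by effective length, scaled per library. Reads that fit near-identical sequences were split by the authors' model.

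The members and gene lists were chosen with earlier results of these data known. The rule for members reads no measured value: it takes symbols of the subunit families with a protein-coding transcript. The second quantification was summed to genes (86 annotated genes were not in it). Counts were rounded for edgeR 4.0.16 (11932 genes after its filter, trimmed-mean factors 1.01, 0.886 and 1.12, intercept only). DESeq2 1.42.0 size factors and a chi-square test were alternatives. limma 3.58.1 compared log2(TPM + 1) between quantifications, with Benjamini-Hochberg adjustment and a threshold of 0.05. It estimated 1 variance for all genes, except in the run with centred differences, where the SE differed between genes. Ratios used nuclear members with a mean of at least 1 TPM, and pairs a pseudocount of 0.1. Copies were found with blastn 2.17.0 among M21 transcripts. A gene at 0 was given a floor of 3 counts.

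Named genes are all mitochondrial members, the 4 highest and 3 lowest nuclear members per complex, genes of the 12 pairs, called members, and the 4 highest and 2 lowest of each list. All other genes given with values, among them Ndufs1, Ndufs6, Uqcrc2, Nrf1, Ppargc1b and Pprc1, were chosen after their values were seen. Protein sequences were not analysed here, and 1 marker gene is not reported here.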

Additional observations from a re-analysis of the deposited data

How the results depend on the processing

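No paired analysis was possible because the 3 libraries form 1 group and their numbers pair nothing. Of 36 alternatives for the ratios of mitochondrial over nuclear genes, 30 kept the sign and stayed within 1 SD of the value reported. That SD is wide, from 2.23 to 2.64 on the log2 scale, so large shifts still count as kept. The mean of log2 values, for example, gave 2.98 in place of 0.54 for complex IV and 4.45 in place of 6.40 for complex V. For complex IV the ratio of 0.54 became 3.21 in the second quantification and 5.43 with copies added, and its sign turned without replicate 1 (-0.04) and without replicate 2 (-0.37), over a range from -0.37 to 2.03. For complex V the ratio of 6.40 became 2.18 on CPM, which do not divide by the effective length of mt-Atp8, and 1.12 from mt-Atp6 alone. Leaving out 1 library gave 3.39 to 5.48 for complex I, 3.10 to 5.41 for complex III and 5.13 to 7.23 for complex V.

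Of 72 alternatives for the isoform pairs, the 1 that changed sign was Atp5g1 over Atp5g2, from -0.99 to 2.58 in the second quantification, and 18 moved by more than 1 SD with the same sign, mostly with the pseudocount or CPM. Members called for excess variance numbered 0 as reported, 7 with no filter on low counts (7 mitochondrial, beside 0.314% of all genes), 87 by the chi-square test (74 nuclear, 13 mitochondrial, beside 87.9%) and 1 to 3 without 1 library (1 to 3 mitochondrial, 0 nuclear, beside 0.0575% to 0.164%). They stayed at 0 with DESeq2 size factors, with copies summed, and for nuclear members with mitochondrial genes left out. Members that differed between quantifications numbered 7 as reported (6 mitochondrial, 1 nuclear, beside 1.62% of all genes) and 7 without any 1 library (beside 1.71% to 1.92%). They numbered 1 (1 mitochondrial, 0 nuclear, beside 1.55%) with copies summed. The nuclear count was 2 at a difference of at least 0.5, which adds Cox6a2, beside 3.18% of all genes. Copies, the removal of the short genes, centring and the scaling to TPM outside mitochondrial genes were chosen after seeing the data. The cause of these shifts was not tested.

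Depth limits the tissue-restricted forms, where 3 counts allow up to 1.4999 TPM for Cox8b in replicate 1. With 3 libraries of which 1 stands apart, the SD of each ratio mostly measures that library.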
